A study of Mus musculus with 30 samples.

Results

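ATF4 is the transcription factor through which cells answer a shortage of amino acids, and the genes examined here are its targets together with the enzymes and transporters that supply amino acids. The set was named by gene symbol as 34 members, which were ATF4 and stress genes of its programme, enzymes of amino acid synthesis, serine-linked one-carbon enzymes and plasma membrane amino acid transporters. The rule for membership was the symbol alone, though it was drawn up with earlier results of these data known. Of these, 33 had an array row that named the gene alone, among 19938 genes on the arrays. Pycr1, an enzyme of proline synthesis, is not analysed here. Slc38a1 had 2 rows, of which the one with the higher mean was used.

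When an amino acid runs short, uncharged transfer RNA activates the kinase GCN2, which phosphorylates the translation factor eIF2alpha. Other kinases do the same under stress of the endoplasmic reticulum, loss of heme or viral RNA. General translation then slows while the Atf4 message is translated more, and ATF4, paired with C/EBP proteins, turns on genes that make or import amino acids, charge transfer RNA and, later, damp the response. In T cells, antigen and growth signals through mTORC1 also raise ATF4, and activated cells import large amounts of neutral amino acids, serine and glutamine to grow.

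The cells were CD8 T cells from spleens of adult C57BL/6 mice aged 6 to 12 weeks, which the labels call female, and all carried the Pmel-1 transgene, a T cell receptor that recognises a melanoma antigen. Naive cells (TN) had the genotype Ly5.1 Pmel-1 Tg. Memory cells (TMem) had the genotype Ly5.2 Pmel-1 Tg and were differentiated in vitro, so they are a culture model of memory and not cells taken from an immune animal. Cells were sorted before stimulation (0 h), or 18 h or 96 h after stimulation by IL-2 together with CD3-specific and CD28-specific antibodies, given either to 1 cell type by itself (alone) or to both in 1 culture (mix). This gave 10 groups of 3 arrays, described as biological repeats: TN alone and TMem alone at 0 h, 18 h and 96 h, and TN mix and TMem mix at 18 h and 96 h. The question these groups address is whether memory cells alter the programme of naive cells that are stimulated beside them. Values are on the log2 scale, so a difference of 1 is a doubling, and differences are the first group named minus the second. In RNA from whole samples, fewer cells with a transcript and less of it per cell cannot be told apart.

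The promoters of 4 of the 5 members that differed most between mixed and separate culture are shown first, because 3 of them hold the core of the element that ATF4 and C/EBP proteins bind together and the other does not. RefSeq windows of mouse build GRCm38.p6, from 250 bases before to 50 bases after the start of transcription, covered 30 of the 34 members, with none for Slc7a5, Cth, Slc1a5 and Slc38a1. The core was taken as TGATGNAA on either strand, and it was present in 8 of the 30, or 26.7%, against 4.51% of 27025 genes with a window. The 8 were Asns, Chac1, Nupr1, Pycr1, Slc1a4, Slc7a11, Trib3 and Vldlr. The cyclic AMP response element TGACGTCA, a neighbouring family of sites that does not contain the core, was in 0 of the 30 members and 2.03% of genes. In the sequences, capitals mark the core, which reads TTGCATCA where it lies on the other strand. They run 5′ to 3′ along the gene's strand up to its start, at chr6:7693210-7693459 (minus strand) for Asns, chr8:85492326-85492575 (plus strand) for Gpt2 and chr2:119350992-119351241 (plus strand) for Chac1, while that of Slc1a4 at chr11:20332689-20332963 (minus strand) goes on for 25 transcribed bases because its core spans the start.
Asns: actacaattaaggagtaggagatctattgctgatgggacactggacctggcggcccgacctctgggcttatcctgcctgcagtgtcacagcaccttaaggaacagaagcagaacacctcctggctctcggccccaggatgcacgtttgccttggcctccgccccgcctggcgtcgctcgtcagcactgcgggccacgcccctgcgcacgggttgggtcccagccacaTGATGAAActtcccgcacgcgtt
Chac1: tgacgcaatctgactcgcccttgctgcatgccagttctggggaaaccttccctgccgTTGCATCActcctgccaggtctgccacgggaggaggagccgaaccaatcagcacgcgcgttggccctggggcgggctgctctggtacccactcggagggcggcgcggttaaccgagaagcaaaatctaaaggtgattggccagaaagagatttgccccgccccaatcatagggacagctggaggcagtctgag
Slc1a4: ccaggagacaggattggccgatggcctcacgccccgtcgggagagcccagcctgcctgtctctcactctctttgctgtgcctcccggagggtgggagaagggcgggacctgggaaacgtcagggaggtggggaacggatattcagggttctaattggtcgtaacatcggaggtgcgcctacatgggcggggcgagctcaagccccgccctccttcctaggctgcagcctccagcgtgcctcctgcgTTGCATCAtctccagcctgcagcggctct
Gpt2: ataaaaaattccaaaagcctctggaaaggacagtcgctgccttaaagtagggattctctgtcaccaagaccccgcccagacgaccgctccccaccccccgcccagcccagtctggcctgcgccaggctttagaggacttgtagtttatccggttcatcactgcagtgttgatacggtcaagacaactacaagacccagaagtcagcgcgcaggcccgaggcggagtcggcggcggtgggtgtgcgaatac
The core begins 23 bases before the start in Asns, 193 in Chac1 and 4 in Slc1a4. Slc6a9, the other of the 5, has 3 windows, none of them with the core, and is not shown. Slc7a11 has it at 66 and 47 bases before its start. A match of letters is a description and not evidence of binding. Because the set was named for ATF4 targets, its share of promoters with the core describes the set and is not a finding of these arrays.

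Several libraries stood apart, and some results that use the 0 h arrays, though not all that moved, are also given without them. Values of all arrays lay between 2.05 and 14.2, with array medians of 6.76 to 6.94, and 22 of the 30 arrays correlated better with their own group than with any other array. The other 8 were all from TMem cells. Of these, 3 of TMem alone at 18 h and 3 of TMem mix at 96 h were closest to the other culture of the same time, but replicate 2 of TMem alone at 0 h was closest to an array of TN mix at 96 h and replicate 3 to one of TN alone at 96 h. Replicate 3 of TMem alone at 0 h had Asns at 8.99 where its fellows had 11.27 and 11.00, and Foxp3 of regulatory T cells at 8.62 against 6.88 and 7.21. Replicate 1 of TN alone at 0 h had the lowest mean correlation with its group (0.980), with Slc38a2 at 10.24 against 11.29 and 11.20.

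Y-linked transcripts differed between the naive groups, which touches the comparisons of those groups, and markers of cell types were examined in every group. All groups transcribed CD8 T cell genes, with 0 of 7 measured markers near background (in a group, a mean under the average of its arrays' lower quartiles, which were 5.63 to 5.74), and of 9 measured B cell genes 5, among them Ms4a1 and Cd79a, were near background in every group, while Cd79b, Blk, Pax5 and Cd22 were above it in all. Of Y-linked genes, Kdm5d, Uty and Eif2s3y were near background in TN alone at 0 h and at 96 h, although Eif2s3y averaged 8.14 in TN alone and 8.36 in TN mix at 18 h, 7.64 in TN mix at 96 h and 9.17 to 9.27 in the TMem groups. The labels give all mice as female, so these levels go against the labels. Whether they came from other donors or from other cells was not tested. The summed level of the 3 genes, on the linear scale, was 76.4 to 87.4 in TN alone at 96 h, 420 to 543 in TN mix at 96 h and 1087 to 1602 in TMem mix at 96 h.

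The members varied more between groups than most genes did. The highest and lowest group means of a member lay a median of 1.53 apart, against 0.52 over all genes, and were at least 1 apart for 25 of 33 members (75.8%) against 23.7% of all genes. In 21 of the 33 the lowest group was TN alone at 0 h, where 18.3% of all genes were lowest. The highest group was TMem mix at 18 h or TMem alone at 96 h for 8 members each (6.19% and 7.44% of all genes). It was TMem mix at 96 h for 5 (7.5%), TMem alone at 18 h for 4 (6.04%) and TN mix at 96 h for 3 (15.1%). The heat map sets each group mean against naive cells before stimulation, and shows naive cells from mixed culture at 96 h in redder colours than naive cells alone for Asns, Gpt2, Chac1, Slc1a4 and Slc6a9.

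**Figure D1:**
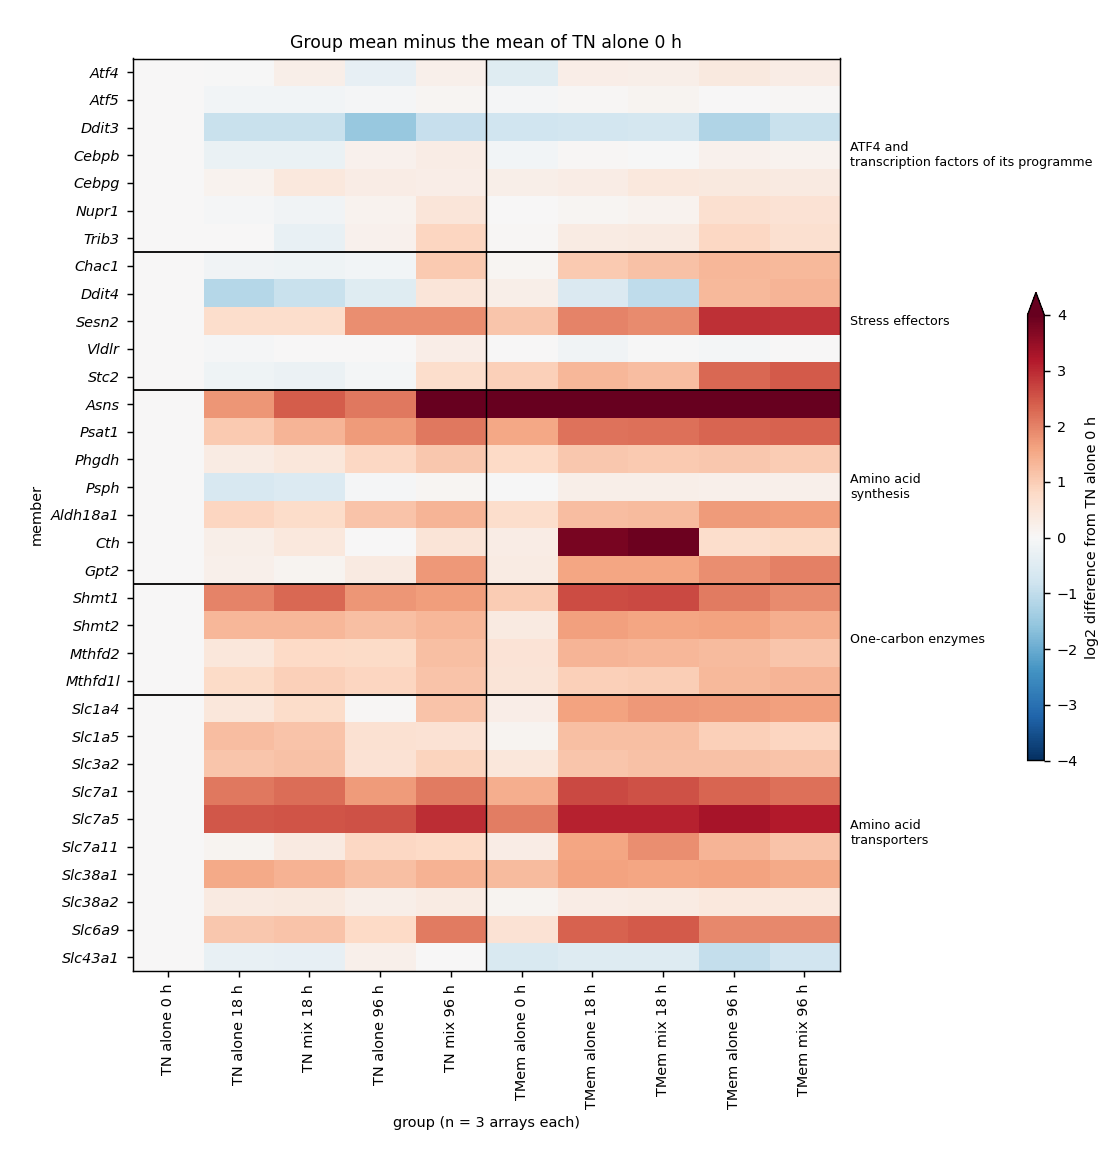
Log2 difference of each group mean (columns, n = 3 arrays each) from the mean of TN alone at 0 h, for the 33 measured members (rows) ordered by role, with red for higher, blue for lower and the darkest red for 4 or more. Asns ran from 6.42 in TN alone at 0 h to 12.32 in TMem mix at 18 h, the widest range among the members, and Cth stood out in both TMem groups at 18 h.

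Samples of naive cells from mixed culture had more transcript of the ATF4 programme at 96 h than samples of naive cells stimulated by themselves. Of the 33 members 17 rose and 0 fell (called at an adjusted p under 0.05 by limma, a linear model that pools the spread of genes), where 7% of all genes were called higher and 3.62% lower. The median difference was 0.33 over the members and 0.05 over all genes. The genes that rose spanned the transcription factors (4 of 7), stress effectors (3 of 5), enzymes of amino acid synthesis (4 of 7), one-carbon enzymes (1 of 4) and transporters (5 of 10).

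Asns, which makes asparagine from aspartate and glutamine, showed the largest difference. Its values were 8.47, 8.69 and 8.46 in TN alone at 96 h and 11.34, 11.45 and 11.27 in TN mix. Every mixed array was above every separate one, and the difference of 2.81 (SE 0.29, adjusted p = 7.90e-08) was a 7.02-fold rise. Gpt2, the mitochondrial enzyme that exchanges amino groups between alanine and glutamate, stood at 6.54, 6.73 and 6.57 alone and 7.74, 8.28 and 7.92 in mix, higher by 1.37 (SE 0.14, adjusted p = 3.55e-08). Replicate 2 of the mix was the highest and no values overlapped. Among the other enzymes of synthesis, Cth, which makes cysteine from cystathionine, rose by 0.48 (adjusted p = 0.00112) from a mean of 5.75, just above background, to 6.23. Psat1, the middle enzyme of serine synthesis, rose by 0.43 (adjusted p = 0.00272) from 10.14 to 10.56. Its neighbours in the pathway were not called: Phgdh, the first enzyme, had means of 10.02 and 10.27 (adjusted p = 0.0597), and Psph, the last, 8.90 and 9.03. Aldh18a1, which starts proline synthesis from glutamate, had 10.59 and 10.80 and was not called either.

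Among transporters, Slc6a9, which carries glycine into cells, gave the smallest p of all members. Its values were 7.19, 7.32 and 7.17 alone against 8.48, 8.59 and 8.44 in mix, a difference of 1.28 (SE 0.08, adjusted p = 7.48e-12) with narrow spread on both sides. Slc1a4, which exchanges alanine, serine and other small neutral amino acids, stood at 6.34, 6.45 and 6.28 alone and 7.37, 7.58 and 7.38 in mix. The 2 groups were clearly apart, by 1.08 (SE 0.14, adjusted p = 2.22e-06). Smaller rises were called for Slc7a1, the carrier of arginine and lysine (0.39, from a mean of 10.27 to 10.66), Slc7a5, the carrier of leucine and other large neutral amino acids (0.39, from 11.87 to 12.26), and its partner subunit Slc3a2 (0.33, from 11.62 to 11.95).

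None of the glutamine carriers was called by the rows used. Slc1a5, which exchanges glutamine, had means of 11.17 alone and 11.13 in mix. Slc38a1 had 10.80 and 10.99, and Slc38a2, which ATF4 raises in many cells, had 11.14 and 11.25. The lower row of Slc38a1, which was not part of the test, had 6.92 alone and 7.39 in mix at 96 h. At 18 h that row had 6.99 alone and 7.50 in mix, while the row used had 11.11 and 10.99. Slc7a11, the cystine carrier, was near background in both groups at 96 h (5.52 and 5.48), so no difference could be measured there. Slc43a1, another carrier of large neutral amino acids, was the member with the lowest difference (-0.20, 95% interval -0.37 to -0.02, adjusted p = 0.165).

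**Figure D2:**
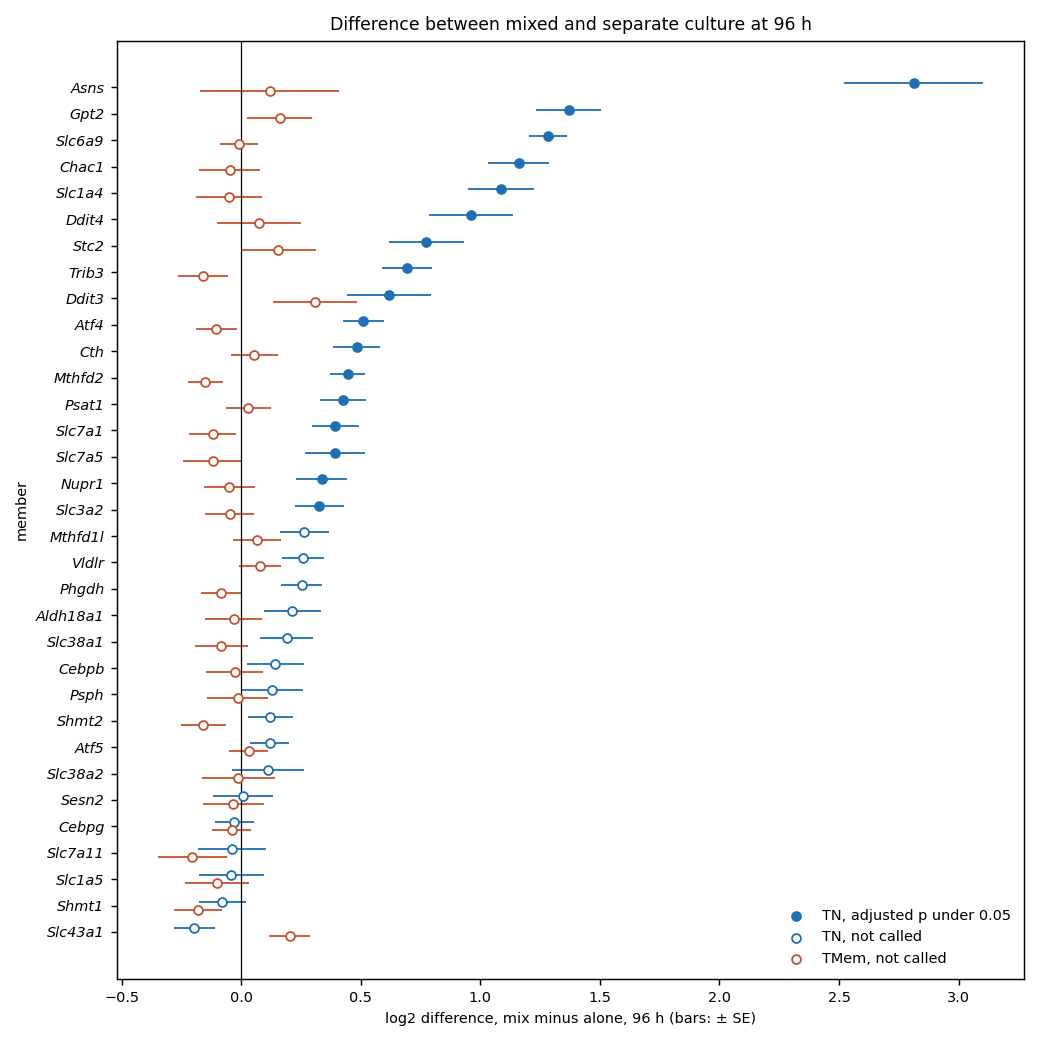
Log2 difference between mixed and separate culture at 96 h for each measured member, with bars of 1 SE of the limma fit, in TN cells (blue, filled where the adjusted p was under 0.05) and in TMem cells (rust red, open, none called). The TN points run from 2.81 for Asns down to -0.20 for Slc43a1, while the TMem points lie between -0.20 and 0.31.

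Of the stress effectors, Chac1, which breaks down glutathione, had 7.81, 7.53 and 7.71 alone and 8.98, 8.85 and 8.71 in mix. It rose by 1.16 (SE 0.13, adjusted p = 2.42e-07) with no overlap. Ddit4, an inhibitor of mTORC1, had 8.25, 8.06 and 8.14 alone and 8.94, 9.49 and 8.90 in mix, a rise of 0.96 (SE 0.17, adjusted p = 3.23e-04) in which replicate 2 of the mix was again the highest. Stc2, a secreted glycoprotein, had 6.75, 6.43 and 6.53 alone and 7.24, 7.45 and 7.33 in mix, a rise of 0.77 (SE 0.16, adjusted p = 0.00118) without overlap. Sesn2, a leucine sensor that restrains mTORC1, differed by 0.01 (95% interval -0.26 to 0.27), with 8.14, 8.20 and 8.12 alone and 8.17, 8.36 and 7.95 in mix. Vldlr, a lipoprotein receptor, had means of 6.16 and 6.42 and missed the threshold (adjusted p = 0.0567).

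Atf4 itself stood at 8.59, 8.71 and 8.61 alone and 9.08, 9.21 and 9.15 in mix, a rise of 0.51 (SE 0.09, adjusted p = 1.20e-04) with no overlap. Its message is regulated mainly in translation, which arrays do not measure. Trib3, a pseudokinase that is induced by ATF4 and feeds back on it, had 7.50, 7.65 and 7.38 alone and 8.08, 8.24 and 8.29 in mix, a rise of 0.69 (SE 0.10, adjusted p = 2.42e-05). Ddit3, which encodes the stress factor CHOP, had 7.78, 7.92 and 8.22 alone and 8.38, 8.77 and 8.62 in mix, a rise of 0.62 (SE 0.18, adjusted p = 0.0198). The highest separate array and the lowest mixed one were close here. Nupr1, a small stress-induced chromatin protein, rose by 0.34 from a mean of 6.85 to 7.19. Cebpg, a partner of ATF4, had means of 8.15 and 8.13, Cebpb, another C/EBP factor, 7.89 and 8.03, and Atf5, a relative of ATF4, 8.05 and 8.17, and none of them was called.

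The one-carbon enzymes moved little. Mthfd2, the mitochondrial folate dehydrogenase of proliferating cells, rose by 0.45 (SE 0.07, adjusted p = 8.09e-05) from a mean of 10.35 to 10.80. Mthfd1l, which releases formate from mitochondria, had 9.78 and 10.04, Shmt2, the mitochondrial serine hydroxymethyltransferase, 10.91 and 11.03, and Shmt1, its cytosolic counterpart, 8.93 and 8.85. These 3 were not called.

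Of the 17 calls 12 held under all 16 other settings and left-out arrays. Asns, Gpt2, Slc6a9, Chac1, Slc1a4, Ddit4, Stc2, Trib3, Atf4, Cth, Mthfd2 and Psat1 kept their calls. Ddit3 lost its call without replicate 1 or 2 of TN alone or replicate 2 or 3 of TN mix at 96 h (adjusted p up to 0.107), Nupr1 without any 1 of 5 of the 6 arrays (up to 0.232), and Slc3a2 (up to 0.175) and Slc7a5 (up to 0.136) without any 1 of the 6. Slc7a1 lost its call where the arrays were centred on their medians (0.0532), as did the 4 others just named. Same-numbered arrays tended to deviate together here, although the labels state no pairing. With the replicate as a block Slc7a5 was not called (adjusted p = 0.0508), while Vldlr (0.0449) and Phgdh (0.0485) were.

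Markers of other cells were also different between the same arrays, and their part in the rises was not tested. Genes of major histocompatibility complex class II, which activated mouse T cells do not normally transcribe, summed to 3207 to 3624 in TN alone at 96 h and 1536 to 1707 in TN mix (6 of 7 measured, linear scale, none near background). The 13 myeloid genes summed to 1493 to 1551 and 998 to 1167, with Lyz2 at 8.26 alone and near background (5.47) in mix. The 8 mast cell and basophil genes summed to 1075 to 1201 and 573 to 656, the 5 genes of CD4 cells to 999 to 1028 and 514 to 613, with Foxp3 at 8.79 and 7.30, the 5 NK cell genes to 311 to 316 and 160 to 177 (3 and 5 of them near background), the 9 B cell genes to 1151 to 1254 and 899 to 979, and the 4 erythroid and platelet genes to 419 to 468 and 340 to 432. The Y-linked genes went the other way, as given above, and lay between those of TN alone and those of TMem mix. Whether TMem cells or other donors within the TN mix samples had a part in the rises was not tested.

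In memory cells no member was called between mixed and separate culture by the same test, in comparisons that called few of all genes. At 96 h 0 of 33 were called in either direction (2 at an unadjusted p under 0.05, Slc43a1 at 0.20 and Mthfd2 at -0.15), where limma called 0.968% of all genes higher and 0.15% lower. The members' differences ran from -0.20 to 0.31 with a median of -0.03. Asns had 12.15, 12.12 and 12.12 in TMem alone and 12.24, 12.25 and 12.25 in TMem mix, which did not overlap but differed by only 0.12 (95% interval -0.49 to 0.73). That interval used the spread of all groups, which replicate 3 of TMem alone at 0 h widened for Asns. The intervals were narrower for the other genes that rose most in TN cells, at -0.18 to 0.16 for Slc6a9, -0.12 to 0.44 for Gpt2, -0.32 to 0.22 for Chac1 and -0.34 to 0.23 for Slc1a4. At 18 h 0 of 33 were again called by limma (1 at an unadjusted p under 0.05), and 0% of all genes were called higher and 0.0301% lower. The member with that p was Ddit4, at 7.91, 8.21 and 8.01 alone and 7.73, 7.50 and 7.60 in mix (difference -0.43, 95% interval -0.80 to -0.07).

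The difference between the cell types was itself tested. At 96 h the effect of mixing was larger in TN than in TMem cells for 10 of 33 members and smaller for 0, against 1.92% and 1.62% of all genes. The 10 were Asns (difference of effects 2.69, SE 0.41, adjusted p = 1.20e-04), Slc6a9 (1.29), Chac1 and Gpt2 (1.21 each), Slc1a4 (1.14), Ddit4 (0.89), Trib3 (0.85), Atf4 (0.62), Mthfd2 (0.60) and Slc7a1 (0.51). Ddit4 and Slc7a1 passed narrowly and lost the call without single arrays (adjusted p up to 0.152 and 0.136).

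At 18 h the members differed little between naive cells in mixed culture and naive cells alone. Of the 33 members 5 rose and 1 fell, in a comparison that called 6.3% of all genes higher and 8.15% lower. Mthfd2 rose by 0.33 (SE 0.07, adjusted p = 0.00193), with 10.10, 10.08 and 10.02 alone and 10.49, 10.26 and 10.45 in mix, which did not overlap. Shmt1 (0.31), Psat1 (0.28), Cebpg (0.28) and Atf4 (0.26) rose by small amounts. Trib3 went the other way, from 7.44, 7.31 and 7.39 to 7.26, 6.86 and 7.09, and fell by 0.31 (adjusted p = 0.0414). Except for Mthfd2 each of these calls was lost when 1 of several arrays was left out, and the count of 6 called fell to between 1 and 3, with 1 called without replicate 1 or without replicate 2 of TN alone and 2 without replicate 3 of TN mix.

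Asns was already apart at 18 h but not called. It stood at 8.24, 8.15 and 8.15 in TN alone and 8.98, 8.75 and 8.83 in TN mix, a difference of 0.67 (SE 0.29, adjusted p = 0.136) without overlap. The standard error came from all 10 groups and was widened by replicate 3 of TMem alone at 0 h. With the 0 h arrays left out the same difference had an SE of 0.07 and an adjusted p of 2.22e-07. Between 18 h and 96 h the effect of mixing on TN cells grew for 7 members and shrank for 0, where 8.16% and 4.26% of all genes were called. These were Asns (by 2.14), Gpt2 (1.47), Slc6a9 (1.24), Chac1 (1.22), Trib3 (1.00), Stc2 (0.85) and Slc1a4 (0.80). At 18 h a single member, Mthfd2, had a larger effect of mixing in TN than in TMem cells (0.37, adjusted p = 0.0292) and 0 a smaller one (1.44% and 3.73% of all genes). That call was lost without any 1 of 8 of the 12 arrays (adjusted p up to 0.0914).

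**Figure D3:**
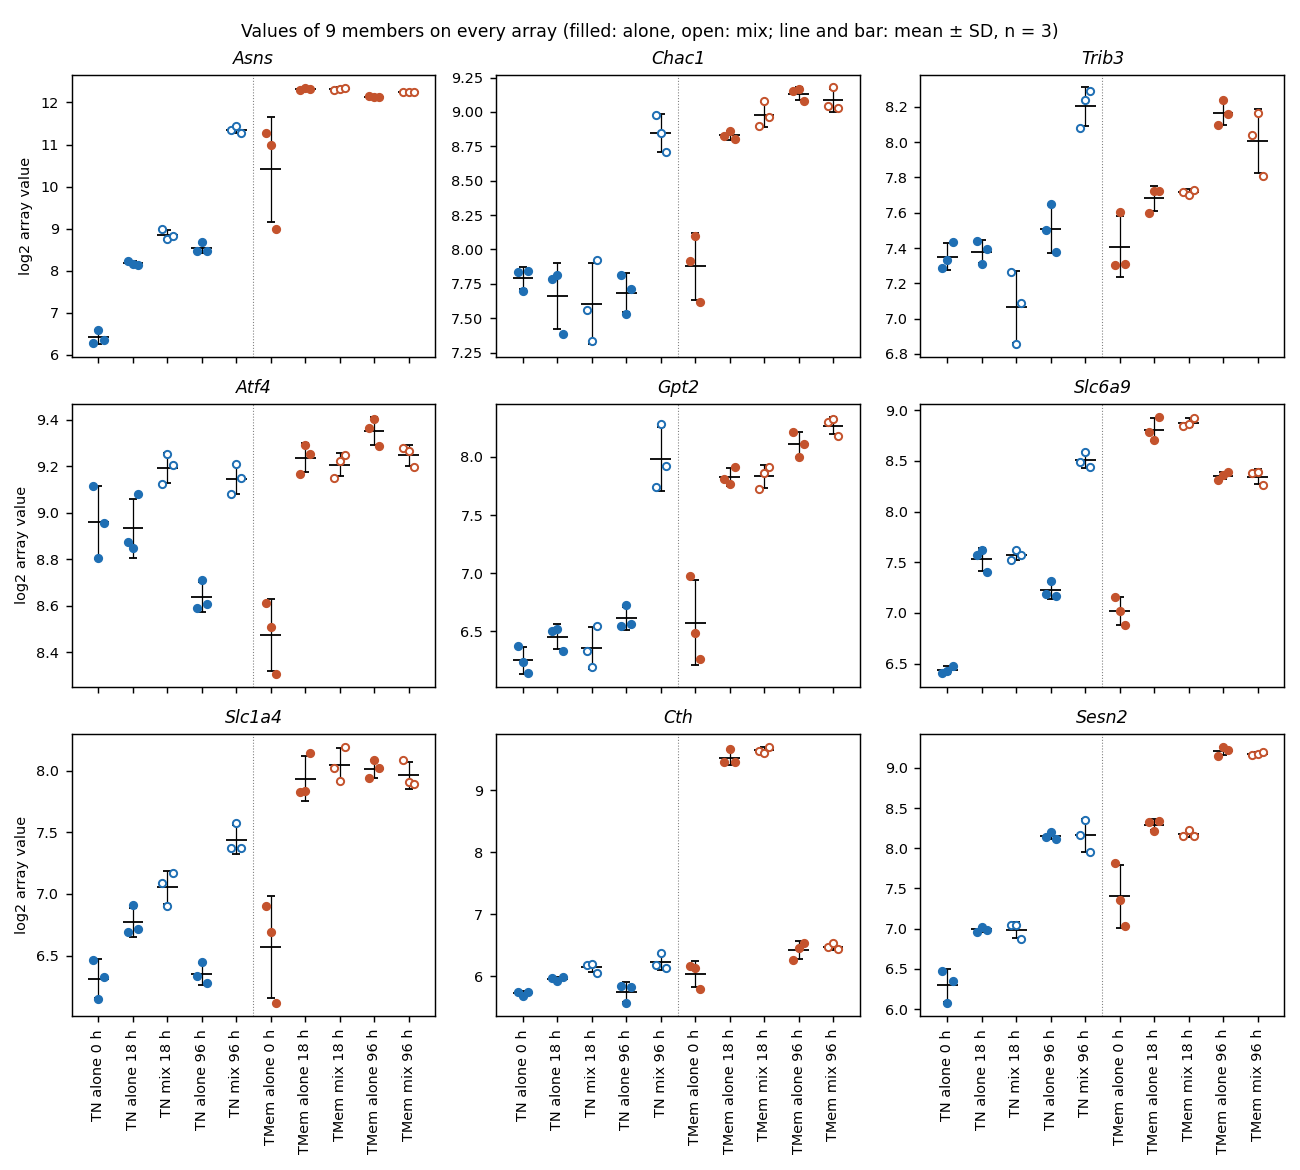
Log2 array values of 9 members in each of the 10 groups, with TN cells in blue and TMem cells in rust red, filled points for cells cultured alone and open points for cells from mix, and the mean with 1 SD (n = 3). Asns, Gpt2, Chac1, Slc6a9 and Slc1a4 were high in TN mix at 96 h and in stimulated TMem cells, Cth was high in both TMem groups at 18 h and in no other group, and Sesn2 was alike in TN mix and TN alone at 96 h.

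Stimulation of naive cells by themselves was followed by more transcript of transporters and one-carbon enzymes, and by no rise of the ATF4 transcription factors. From 0 h to 18 h 16 members rose and 4 fell (17.1% and 16.7% of all genes), among them all 4 one-carbon enzymes and 7 of 10 transporters. Slc7a5 rose from 9.07, 9.43 and 9.43 to 11.87, 11.80 and 11.73, by 2.49 (SE 0.13, adjusted p = 4.47e-15). Slc7a1 rose by 2.12, Shmt1 by 1.99, Asns by 1.76, Slc38a1 by 1.51, Shmt2 by 1.34, Slc1a5 by 1.24 and Slc3a2 by 1.11. Ddit4 fell by 1.15, Ddit3 by 0.90, Psph by 0.65 and Slc43a1 by 0.30. Of the 7 transcription factors 0 rose, and Atf4 had means of 8.96 and 8.93. Without replicate 1 of TN alone at 0 h the counts were again 16 and 4, but Slc1a5 rose by 0.95, Slc3a2 by 0.91 and Slc38a1 by 1.30, while Ddit4 fell by 0.93, Ddit3 by 0.69 and Psph by 0.44.

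Between 0 h and 96 h 18 members rose and 3 fell (18.6% and 17.9% of all genes), and Ddit3 fell by 1.53, Ddit4 by 0.48 and Atf4 by 0.32. Without replicate 1 of TN alone at 0 h 19 rose and 2 fell, Ddit4 was not called (-0.27, adjusted p = 0.28), Cebpb was called higher (0.33), and the rise of Slc1a5 went from 0.61 to 0.32. Between 18 h and 96 h 9 rose and 8 fell (11.3% and 13.1%), led by Sesn2 (1.16 higher) and, in the other direction, Ddit3, Slc1a5 and Slc3a2, which fell by 0.63, 0.63 and 0.53. In mixed culture the same interval saw 20 rise and 3 fall (20.6% and 16.5%). Asns went up by 2.50, Gpt2 by 1.63, Ddit4 by 1.37, Chac1 by 1.24 and Trib3 by 1.13, while Shmt1 fell by 0.63, Slc1a5 by 0.57 and Slc3a2 by 0.27. Markers of other cells moved in TN alone too, and their part was not tested. Class II genes summed to 947 to 1116 at 0 h and 3207 to 3624 at 96 h, and mast cell and basophil genes to 496 to 576 and 1075 to 1201. B cell genes were lower at 18 h (639 to 678) than at 0 h (1137.5 to 1295.4). Y-linked genes summed to 69.2 to 94.7 at 0 h, 579 to 630 at 18 h and 76.4 to 87.4 at 96 h.

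In memory cells stimulated alone most enzymes and transporters rose by 18 h. From 0 h to 18 h 22 members rose and 1 fell (18% and 17.3% of all genes), and from 0 h to 96 h 25 rose and 1 fell (16.1% and 8.44%). At 18 h these were 6 of 7 enzymes of synthesis, 4 of 4 one-carbon enzymes, 8 of 10 transporters, 2 of 7 transcription factors and 2 of 5 stress effectors, with 1 stress effector lower. Markers of other cells moved in the same arrays, and their part was not tested. The 8 mast cell and basophil genes summed to 977 to 1790 at 0 h, 472 to 479 at 18 h and 556 to 591 at 96 h, and the 4 measured erythroid and platelet genes to 721 to 924, 294 to 330 and 294 to 323. Other lists rose by 96 h. Myeloid genes summed to 986 to 1305 at 0 h, 972 to 1060 at 18 h and 1665 to 1851 at 96 h. NK cell genes, most of them near background, summed to 166 to 244, 165 to 189 and 313 to 328. Without replicate 3 of TMem alone at 0 h, 20 rose and 1 fell by 18 h, and 24 and 1 by 96 h. Atf4 rose from 8.61, 8.51 and 8.31 to 9.17, 9.29 and 9.25 at 18 h, by 0.76 (SE 0.09, adjusted p = 2.91e-08), with no overlap. Slc6a9 rose by 1.79, Shmt1 by 1.58, Slc1a4 by 1.36, Gpt2 by 1.26 and Chac1 by 0.95, and Ddit4 fell by 0.81. Slc7a11 also rose, from a mean of 4.96, near background, to 6.26, so the size of its rise was not measured. The rise of Asns, 1.90, was 1.18 without replicate 3 of TMem alone at 0 h (adjusted p = 1.45e-10), and its rise to 96 h, 1.71, was 1.00.

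Cth was the sharpest single response in the set. It stood at 6.17, 6.14 and 5.79 in TMem alone at 0 h, 9.46, 9.67 and 9.46 at 18 h, and 6.27, 6.45 and 6.54 at 96 h. It rose by 3.50 (SE 0.10, adjusted p = 3.75e-20), an 11.3-fold change, and then fell by 3.11. TMem cells from mixed culture gave 9.64, 9.60 and 9.71 at 18 h and 6.47, 6.53 and 6.43 at 96 h, and fell by 3.17. TN cells at 18 h had 5.97, 5.92 and 5.98 alone and 6.18, 6.19 and 6.05 in mix, so no array of TN cells reached the TMem values of that time.

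After 18 h memory cells gained transcript of the mTORC1 inhibitors Ddit4 and Sesn2. Between 18 h and 96 h in TMem alone 7 members rose and 5 fell (14.6% and 9.87% of all genes), with Ddit4 up by 1.87, Stc2 by 0.98 and Sesn2 by 0.92, and besides Cth, Shmt1 fell by 0.52 and Slc6a9 by 0.46. In TMem mix 8 rose and 8 fell (16.1% and 11.5%), with Ddit4 up by 2.38, while Shmt1 fell by 0.73. Myeloid and NK cell genes also summed higher at 96 h than at 18 h in both cultures, and their part was not tested.

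The response of the first 18 h differed between the cell types for 17 members. It was larger in TMem cells for 11 and smaller for 6 (14.2% and 14.7% of all genes). The larger ones included Cth (difference of responses 3.26), Chac1 (1.09), Gpt2 (1.06), Ddit3 (0.96), Slc1a4 (0.91), Psph (0.88) and Atf4 (0.79). Slc7a11 was called as well, without a measured size, since TN cells at both times and TMem cells at 0 h were near background. The smaller ones were led by transporters, Slc7a5 (-1.48), Slc38a1 (-1.16) and Slc7a1 (-0.95), which TMem cells already had at higher levels at 0 h. For Asns the difference was 0.13 and not called, and without replicate 3 of TMem alone at 0 h it was -0.58 (adjusted p = 9.91e-04).

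Before stimulation 17 members were higher in TMem than in TN cells and 3 lower (18.4% and 17.5% of all genes). By role, 5 of 7 enzymes of amino acid synthesis, all 4 one-carbon enzymes, 5 of 10 transporters, 2 of 5 stress effectors and 1 of 7 transcription factors were higher, and 1 transporter and 2 transcription factors were lower. Asns was at 6.29, 6.60 and 6.37 in TN and 11.27, 11.00 and 8.99 in TMem, higher by 4.0 (SE 0.29, adjusted p = 6.33e-12), or by 4.71 without the lowest TMem array. Even that array was above all 3 naive ones. Slc7a5 was higher by 2.05, Psat1 by 1.53, Slc7a1 by 1.47, Slc38a1 by 1.27, Sesn2 by 1.1 and Shmt1 by 1.02. Ddit3 (-0.80), Slc43a1 (-0.60) and Atf4 (-0.48) were lower. Without replicate 3 of TMem the counts were 21 and 3, and without replicate 1 of TN 17 and 4. In TMem alone at 0 h mast cell and basophil genes summed to 1129, 977 and 1790 and erythroid and platelet genes to 924, 721 and 810, where TN alone at 0 h had 496 to 576 and 354 to 426, and their part in these differences was not tested.

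After stimulation more members were higher in TMem than in TN cells at 18 h in both cultures and at 96 h alone, and fewer at 96 h in mix. At 18 h alone, 22 members were higher in TMem and 1 lower (15.4% and 13.5% of all genes), and at 18 h in mix 19 and 0 (11.8% and 8.64%). At 96 h alone 24 were higher and 1 lower (14.1% and 8.02%). At 96 h in mix 5 were higher and 2 lower (6.68% and 3.94%). These comparisons share arrays with those of mixing given above, so they are not independent of them. Markers of other cells also differed between the arrays at 96 h, and their part was not tested. Genes of major histocompatibility complex class II summed to 3207 to 3624 in TN alone and 689 to 758 in TMem alone. In mix they summed to 1536 to 1707 and 940 to 961. Myeloid genes went the other way, at 1493 to 1551 in TN alone and 1665 to 1851 in TMem alone. The Y-linked sums are given above.

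The gap in Asns was 3.59 at 96 h alone and 0.89 in mix (SE 0.29, adjusted p = 0.0466). For Gpt2 the 2 gaps were 1.5 and 0.29, for Chac1 1.45 and 0.24, for Slc1a4 1.66 and 0.52, for Ddit4 1.77 and 0.88, and for Slc6a9 1.13 and -0.16. Stc2, 2.37 and 1.75 higher in TMem, and Sesn2, 1.06 and 1.02 higher, kept most of the gap, as did Slc43a1, at -1.16 and -0.76. Vldlr, at -0.27 in mix, was called narrowly and lost its call in 10 of 15 alternatives, and Asns lost its call in 8, among them every left-out array (adjusted p up to 0.177 and 0.128). For Asns the values did not overlap, at 11.27 to 11.45 in TN mix and 12.24 to 12.25 in TMem mix. Its SE came from all groups and was widened by replicate 3 of TMem alone at 0 h. With replicate 1 or 3 of TN mix or replicate 1 of TMem mix left out, 4 members were called in place of 7, and Slc1a4 was among those lost (adjusted p up to 0.074). Other settings raised the count. With array weights, or with the 0 h arrays left out, more than 7 were called, as given in the closing section.

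**Figure D4:**
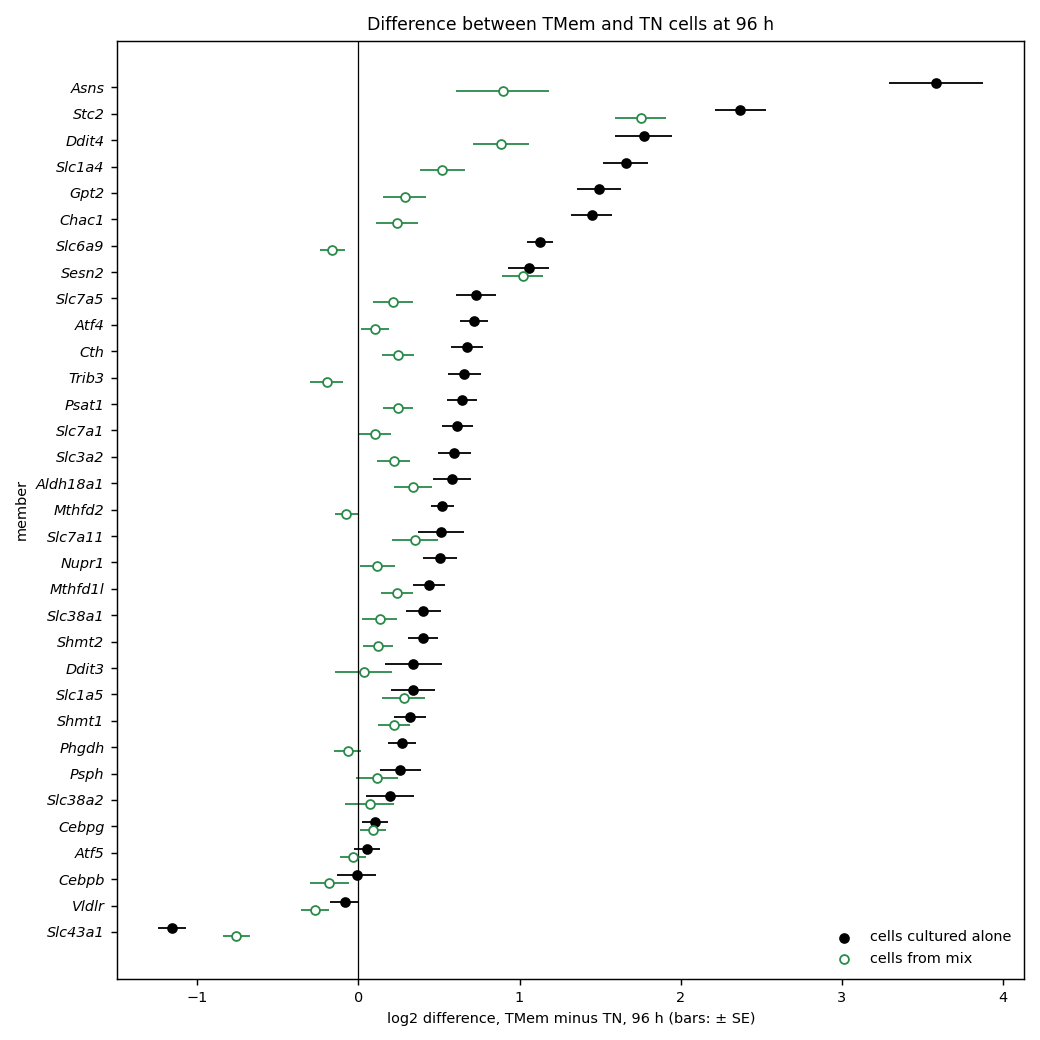
Log2 difference between TMem and TN cells at 96 h for each measured member, with bars of 1 SE of the limma fit, for cells cultured alone (black, filled) and cells from mix (green, open). For Asns the difference was 3.59 alone and 0.89 in mix, while for Sesn2 it was 1.06 and 1.02.

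Genes around the programme were followed through lists of related genes, described by counts beside the share of all genes called, which for mixing of naive cells at 96 h was 7% higher and 3.62% lower. In naive cells at 96 h, mixing raised 3 of 14 eIF2alpha kinases and regulators and lowered 0, namely Ppp1r15a (0.71, SE 0.08), the phosphatase subunit that reverses the response, the kinase Eif2ak3 (0.43) and Ppp1r15b (0.32). Of 19 cytosolic aminoacyl-tRNA synthetases and related genes 6 rose and 1 fell. Those that rose included Cars (0.72), Yars (0.55), Nars (0.52) and Gars (0.49), which charge the transfer RNAs of cysteine, tyrosine, asparagine and glycine. The median of the synthetases was 0.13, against 0.05 over all genes.

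The next 4 lists had counts near the share of all genes. Of 23 other transporters 2 rose and 1 fell. Slc7a3, a carrier of arginine and lysine, rose by 1.19 (SE 0.13, adjusted p = 1.36e-07), Slc43a3, which carries purine bases, by 0.44, and Slc16a10, a carrier of aromatic amino acids, fell by 0.72. Of 21 other genes of amino acid metabolism Bcat1, which starts the breakdown of branched-chain amino acids (0.73), and Got1, an aspartate aminotransferase (0.32), rose and 0 fell. Of 15 other one-carbon genes 0 rose and 1, Mthfd1, fell by 0.33. In the mTORC1 list of 25 genes 2 rose, Rragb (0.65) and Sesn1 (0.29), and Akt1s1 fell by 0.54.

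The unfolded protein response outside ATF4 moved in both directions. Of its 21 genes 4 rose and 2 fell. Atf6, a sensor of the endoplasmic reticulum, rose by 1.57 (SE 0.15, adjusted p = 1.66e-08) and Hspa5, the main chaperone, by 0.35, while the sensor Ern1 fell by 0.58 and its target Xbp1 by 0.42. The median was 0.01. In the first 18 h of stimulation alone 17 rose and 3 fell in TN (17.1% and 16.7% of all genes) and 19 rose and 1 fell in TMem cells (18% and 17.3%). The synthetases did so too, with 15 rising and 1 falling in TN cells and 16 and 0 in TMem cells. In TMem cells at 96 h mixing raised 0 genes of these 7 lists and lowered 1 eIF2alpha regulator and 1 gene of amino acid metabolism. Of all genes, only 0.968% were called higher and 0.15% lower in that comparison.

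At 18 h, where 6.3% of all genes were called higher and 8.15% lower between the naive cultures, the counts were as follows. In naive cells from mixed culture 6 of the 19 synthetases rose and 2 fell, with Farsb (0.43), Kars (0.38) and Hars (0.48) higher and Wars at -0.51, and their median was 0.23 against -0.01 over all genes. Of the other one-carbon genes 4 rose and 1 fell, among them Slc25a32, the mitochondrial folate carrier (0.59), and Fpgs, which retains folate in cells (0.49). Of the 23 other transporters 0 rose and 5 fell, led by Slc43a2, a carrier of large neutral amino acids, which fell by 0.99, and the lysosomal carrier Slc36a1, which fell by 0.68. In the mTORC1 list 3 rose and 4 fell, with Sesn1 and Sesn3 at -0.68 and -0.40. The eIF2alpha list had 2 higher and 1 lower, amino acid metabolism 3 and 1, and the unfolded protein response 1 and 1. In TMem cells at 18 h no gene of the 7 lists was called between mix and alone, where 0% of all genes were called higher and 0.0301% lower.

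Between the cell types at 96 h, 14.1% of all genes were higher in TMem and 8.02% lower alone, and 6.68% and 3.94% in mix. Alone, 10 of 19 synthetases were higher in TMem and 1 lower, 7 of 14 eIF2alpha regulators were higher and 0 lower, and 7 of 21 genes each of amino acid metabolism and of the unfolded protein response were higher and 1 of each lower. In mix the same counts were 1 and 1, 3 and 0, 0 and 0, and 1 and 0, in that order. The other transporters had 5 higher and 1 lower alone and 4 and 1 in mix, the mTORC1 list 4 and 4 alone and 0 and 2 in mix, and the other one-carbon genes 2 and 0 alone and 0 and 1 in mix.

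The promoter core was also set beside the response to mixing. Of the 7 measured members with the core in their window, 5 rose in TN mix at 96 h, with a median difference of 0.69 and a range of -0.04 to 2.81. Of the 22 measured members with a window and no core, 10 rose, with a median of 0.26 and a range of -0.20 to 1.37. Gpt2 and Slc6a9, with no core in the letters shown or searched, rose more than Chac1 and Slc1a4, which have it, and Slc7a11, which has it at both of the positions given, was near background in both groups. Of all genes, 7% were called higher in this comparison, and that share was not split by the core. These are descriptions of 29 genes from a set named for ATF4 targets, and no test was made.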

How the data were processed

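Gene expression was measured on 30 Affymetrix arrays. The deposited table gave 1 log2 value for each of 35556 rows and array, normalised by the authors, and names RMA and Partek, per the submitters' processing notes. The sources used here do not give their order, versions or settings. The platform annotation gave 21789 rows 1 gene symbol and 1621 several, and did not list 12146. Symbols were updated through gene numbers for 21698 rows. Of the rows with 1 symbol the one with the highest mean stood for each of 19938 genes.

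Group means were fitted with limma 3.58.1 in R 4.3.3 over all arrays in 1 model (20 residual degrees of freedom), and p-values were adjusted over all 19938 genes by Benjamini-Hochberg and called at 0.05. The procedure was tested on simulated data. The labels describe the arrays as biological repeats, and their number limits the precision. Same-numbered arrays tended to deviate together between TN mix and TN alone at 96 h, with correlations of 0.137 to 0.489 for the 3 pairs. Arrays with different numbers gave -0.381 to 0.162, so the ranges overlapped, and the labels state no pairing. No other pair of groups compared for mixing showed such a pattern.

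Alternatives were a replicate block, a second quantile normalisation, centring on medians, array weights, the mean of a gene's rows, a filter on low values, a trended robust spread, fewer groups in the fit and leaving out each array. Every member was named. Array values were given for members called between mix and alone with a difference of at least 0.5 and for Atf4, and up to 4 genes of each other list were named by adjusted p. Members and lists were chosen with earlier results of these data known. Promoter letters are from RefSeq.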

Additional observations from a re-analysis of the deposited data

Results flagged for a closer look

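Effects differed between cell types or times by the same limma fit, with an adjusted p under 0.05 for the difference itself. Groups of 3 arrays are too small for a test of single outlying arrays. The effect of mixing at 96 h was larger in TN than in TMem cells for Asns (2.69), Slc6a9 (1.29), Chac1 and Gpt2 (1.21 each), Slc1a4 (1.14), Ddit4 (0.89), Trib3 (0.85), Atf4 (0.62), Mthfd2 (0.60) and Slc7a1 (0.51), and at 18 h for Mthfd2 (0.37). In TN cells it was larger at 96 h than at 18 h for Asns (2.14), Gpt2 (1.47), Slc6a9 (1.24), Chac1 (1.22), Trib3 (1.00), Stc2 (0.85) and Slc1a4 (0.80).

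The response to the first 18 h of stimulation was larger in TMem than in TN cells for Cth (3.26), Chac1 (1.09), Gpt2 (1.06), Ddit3 (0.96), Slc1a4 (0.91), Psph (0.88), Atf4 (0.79), Slc6a9 (0.70), Slc43a1 (0.37) and Mthfd2 (0.34). The fitted 1.18 of Slc7a11 is not a measured size, since TN cells at both times and TMem cells at 0 h were near background. It was smaller for Slc7a5 (-1.48), Slc38a1 (-1.16), Slc7a1 (-0.95), Slc3a2 (-0.45), Psat1 (-0.44) and Shmt1 (-0.41). Of these, Psat1, Shmt1, Mthfd2, Slc3a2 and Slc43a1 each lost the call under at least 1 alternative.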

How the results depend on the processing

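Of 336 recomputed counts of called members 309 stayed within 1.5 times the count reported, 17 were lower and 10 higher. For mixing of TN cells at 96 h, 17 members were called, 13 to 15 with 1 array left out, 12 with arrays centred on their medians, 16 with the replicate block over all arrays and 18 with the replicate block for the TN 96 h arrays alone, a setting chosen after seeing the data. At 18 h the count of 6 was 5 with the replicate block and 1 to 3 with 1 array left out. Same-numbered arrays did not deviate together in the other groups compared for mixing. For TMem against TN in mix at 96 h (7 called) array weights gave 18, leaving out the 0 h arrays 13, and leaving out 1 array 4 to 6. For the difference of mixing effects between cell types, the 1 member called at 18 h became 3 with array weights, 3 without the 0 h arrays, 3 with only the groups compared, and 0 to 1 with 1 array left out, and the 10 called at 96 h became 19 with array weights and 17 without the 0 h arrays. For the difference between 96 h and 18 h in TN cells (7 called) these settings gave 16, 14 and, with only the groups compared, 11. Of 11088 recomputed differences of single members 2 reversed with a call. The TMem minus TN difference of Slc38a2 at 0 h went from 0.10 to -0.23 without TN alone 0 h replicate 1 (adjusted p = 0.0394; 0.29 at most with another array left out), and the difference of 18 h responses of Asns went from 0.13 to -0.58 without TMem alone 0 h replicate 3 (0.56 at most). Without that TMem array the members called higher and lower were 20 and 1 for TMem 18 h against 0 h, 24 and 1 for 96 h against 0 h, and 21 and 3 for TMem against TN at 0 h. The cause of these shifts was not tested. Members near background, such as Slc7a11 in TN cells, have no measurable decrease.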
